A study of Mus musculus with 10 samples.

Results

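The 7 genes Sgsm1, Arhgef16, Smim22, Ppm1j, Rnf186, Lypd3 and Themis3 had been picked from a table of murine pancreatic tumors for high values after dextrose water and low values after regular water. They are 7 of the 55359 genes in the table and 7 of the 24560 that had a mean of at least 1 normalized count over all tumors. A normalized count is the number of reads of a gene in a tumor divided by the size factor of that tumor. Since the choice used the difference between the diets, that difference is described below without a test, and nothing is supported with it.

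KPC K8484 cells, a murine line of pancreatic ductal adenocarcinoma whose alleles include Trp53 R172H/+ and Pdx1-Cre, were injected into the pancreas of C57BL/6 mice (the J substrain by the methods) of 10 weeks. The 5 mice of the CTRL group drank regular water and stayed normoglycemic, and the 5 mice of the D30 group drank water with 30% dextrose, which raises blood glucose. Both diets lasted 14 days, and RNA of the whole tumors was sequenced. All tumors thus shared the same injected line, in hosts with an intact immune system, so the mutations of the cells and the Cre driver did not differ between the diets. By the methods male and female mice were used in equal numbers, but the labels give no sex of the animals. The titles of the samples speak of PDX tumors, whereas their source is given as orthotopic tumors from KPC K8484 cells. Tumors are named here by the letter and number of their column, N for CTRL and T for D30, because the column numbers do not give the animal.

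None of the 7 genes encodes a textbook enzyme of glucose metabolism, and their products act in several compartments of a cell. Sgsm1 is a RUN and TBC domain protein that binds small GTPases of the Rap and Rab families, and Arhgef16, also called ephexin-4, is an exchange factor that activates RhoG downstream of the receptor EphA2. Ppm1j is a metal-dependent serine/threonine phosphatase of the PP2C family, and Rnf186 is a RING ubiquitin ligase of the endoplasmic reticulum, known best from the epithelium of the colon. Smim22 encodes a small membrane protein, also known as CASIMO1, that interacts with squalene epoxidase. Lypd3, or C4.4A, is a surface protein of the LY6/PLAUR family, known from stratified squamous epithelium and from carcinomas, that binds laminins and Agr2. Themis3 is a mouse relative of Themis, a protein of T cell receptor signalling, and is known from the intestine rather than from T cells.

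The members lie on 6 chromosomes and were all annotated as protein-coding in GENCODE M21 (GRCm38). Sgsm1 occupies chr5:113243220-113310786 on the minus strand, Arhgef16 chr4:154278486-154301676 on the minus strand and Rnf186 chr4:138967112-138968360 on the plus strand. Smim22 lies at chr16:5007288-5008309, Ppm1j at chr3:104781056-104786018 and Lypd3 at chr7:24636550-24641118, all on the plus strand, and Themis3 at chr17:66554505-66594621 on the minus strand. The gene bodies span from 1022 bases in Smim22 to 67567 bases in Sgsm1.

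Promoter sequence was a feature that the choice of the genes did not use. RefSeq windows of the 250 bases before the annotated start (GRCm38.p6) were found for 6 of the 7 genes, and not for Themis3. The windows of the 4 members whose sequence lay outside or nearly outside their own transcripts are shown, written 5′ to 3′ on the strand of the gene, with the letters matching 1 of 11 searched motifs in capitals. They are Rnf186 at chr4:138966869-138967118 (plus), Sgsm1 at chr5:113310787-113311036 (minus), Smim22 at chr16:5007038-5007287 (plus) and Ppm1j at chr3:104780806-104781055 (plus).
Rnf186: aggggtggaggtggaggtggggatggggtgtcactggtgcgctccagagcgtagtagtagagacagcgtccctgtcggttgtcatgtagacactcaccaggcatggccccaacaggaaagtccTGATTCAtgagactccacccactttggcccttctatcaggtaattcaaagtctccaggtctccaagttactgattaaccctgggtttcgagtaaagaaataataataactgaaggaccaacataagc
Sgsm1: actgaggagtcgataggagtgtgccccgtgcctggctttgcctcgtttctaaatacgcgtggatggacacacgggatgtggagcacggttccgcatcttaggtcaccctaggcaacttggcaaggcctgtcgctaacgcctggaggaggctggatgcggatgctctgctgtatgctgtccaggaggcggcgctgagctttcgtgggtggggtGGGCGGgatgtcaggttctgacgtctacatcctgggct
Smim22: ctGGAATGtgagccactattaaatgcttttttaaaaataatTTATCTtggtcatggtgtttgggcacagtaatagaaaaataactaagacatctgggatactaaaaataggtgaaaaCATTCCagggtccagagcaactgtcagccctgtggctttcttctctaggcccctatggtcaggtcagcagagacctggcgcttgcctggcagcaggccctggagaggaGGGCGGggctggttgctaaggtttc
Ppm1j: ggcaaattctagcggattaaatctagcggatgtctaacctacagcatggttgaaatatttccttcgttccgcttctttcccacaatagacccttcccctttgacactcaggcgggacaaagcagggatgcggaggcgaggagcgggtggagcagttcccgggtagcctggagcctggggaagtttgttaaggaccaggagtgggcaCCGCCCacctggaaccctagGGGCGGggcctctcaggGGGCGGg

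Motifs were searched on both strands. In Rnf186 the capitals mark an AP-1 motif, spelled TGANTCA, and in Sgsm1 a GC box, spelled GGGCGG. In Smim22 they mark a GATA motif and a GC box as well as a pair of TEAD motifs, and in Ppm1j they mark 3 GC boxes. No letter string was common to all members. The GC box was found in 5 of the 6 genes with a window, the exception being Rnf186, and in 32.7% of all 32851 windows. The AP-1 motif was present in Rnf186 and in a window of an inner start of Sgsm1, and in 6.75% of all windows. The E-box CACGTG was found only in Arhgef16 among the members (6.02% of all windows), while the GATA letters AGATAA (9.99% of all windows) were found only in Smim22. The TEAD letters, which read GGAATG and were present in 12.6% of all windows, were also limited to Smim22 among the members. The Grainyhead (AACCGGTT), forkhead A (TGTTTAC), HNF4 (CAAAGTCCA), HNF1, caudal homeobox (TTTATNG) and TATA box (TATAAA) motifs matched in no window of the members, which says only that these letters are not within the windows. The GC content of the windows also varied widely, from 47.2% in the outer window of Smim22 and 50.4% in Rnf186 to 76.4% in Arhgef16, against a median of 52.4% over all windows.

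The reads recovered from the normalized counts numbered 29915331 to 42122304 per CTRL tumor and 29192261 to 37126175 per D30 tumor. Genes with a read numbered 24200 to 25912 in CTRL and 20482 to 24716 in D30 tumors, the fewest in T5. Over the 24560 tested genes, limma's moderated test (adjusted p under 0.05 by Benjamini-Hochberg, written below as called) found 344 genes higher and 334 lower in D30, that is, 1.40% and 1.36% (2.76% in all), and the median log2 difference was -0.06. T4 stood apart, in that it held 841 reads of 4 Y-linked genes where the other 9 tumors held 0 and had the lowest summed fibroblast markers. The log2 differences of most members and the list counts that changed are therefore given also without T4. Mice of both sexes were used by the methods, and the part of sex in the T4 values was not tested. Without T4 the called shares were 3.22% higher and 6.23% in either direction, and over all 10 tumors edgeR called 2.61% and DESeq2 7.97% in either direction. An unadjusted p under 0.05 was found for 17.3% of the tested genes. Nothing in the labels used here says how the tumors were distributed over extraction or sequencing runs.

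In all 7 genes every D30 tumor was above every CTRL tumor, which is how they had been chosen and which also held for 2.87% of the tested genes. By the difference of the mean log2(normalized count + 1), Themis3, Rnf186 and Lypd3 stood at places 3, 4 and 5 of the 24560 tested genes, Smim22 at 12, Sgsm1 at 28, Arhgef16 at 31 and Ppm1j at 332. The choice states no cut-off. The genes at places 1 and 2, Muc3 with a log2 difference of 5.91 and Naip1 with 5.40, are not members, and neither are Gm8162 (4.55) and Tmprss4 (4.45) just after Lypd3. Ppm1j, with 1.91, borders Nos2 (1.91) and Hrc (1.91), so that it is not among the genes with the largest differences by this measure. It had the narrowest spread of the members in CTRL tumors.

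**Figure D1:**
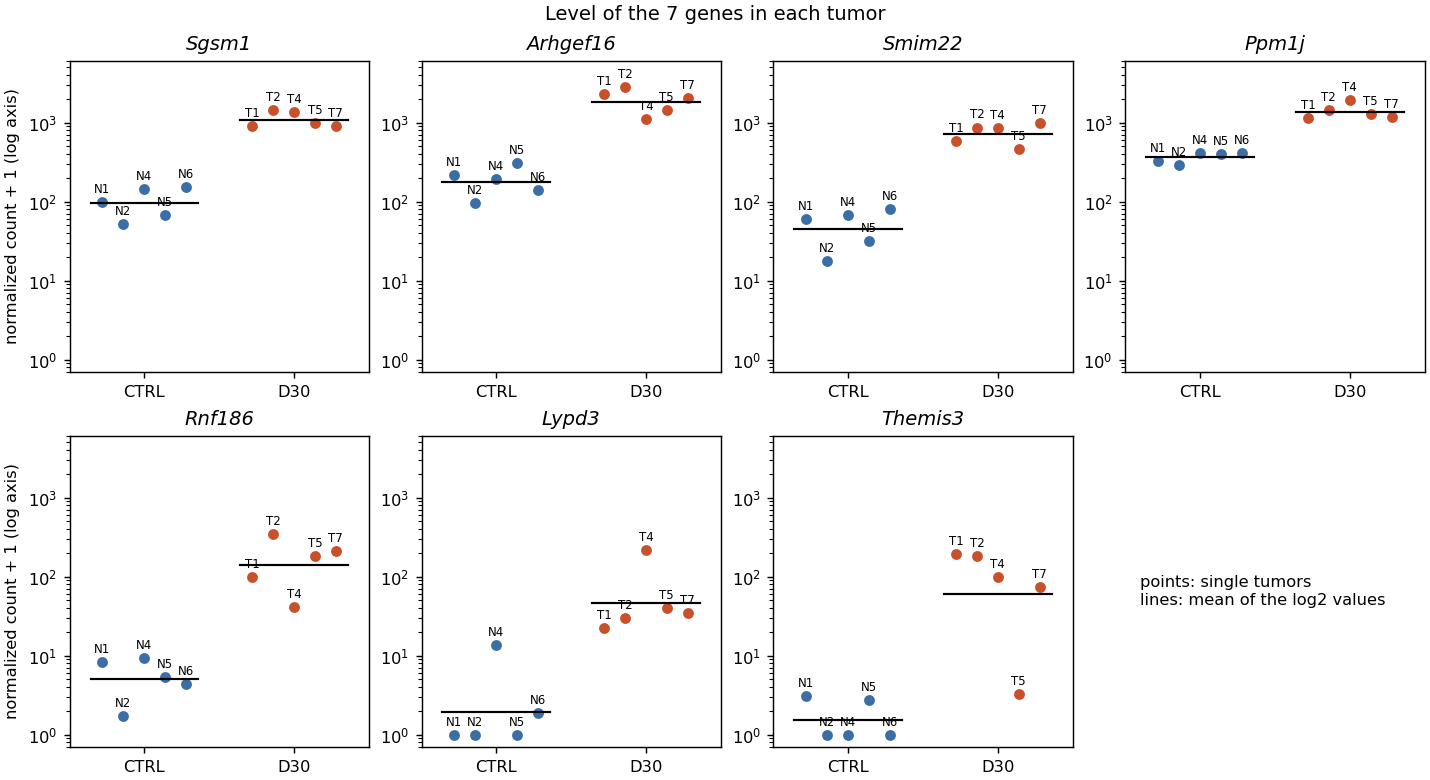
Each panel plots 1 gene, with the normalized count + 1 of each tumor on a log axis for 5 CTRL (blue) and 5 D30 (orange) tumors, and a line at the mean of the log2 values. Ppm1j shows the tightest CTRL group, while Lypd3 and Themis3 lie at or near 0 in most CTRL tumors and spread widely in D30, with T4 far above the rest for Lypd3 and T5 at the CTRL level for Themis3.

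Sgsm1 was measured at 96.8, 51.3, 142, 67.3 and 151 normalized counts in N1, N2, N4, N5 and N6. In T1, T2, T4, T5 and T7 it reached 893, 1423, 1352, 986 and 909. The lowest D30 tumor, T1, was 5.90-fold above the highest CTRL tumor, N6, and the D30 tumors were more alike (coefficient of variation 22.9%) than the CTRL tumors (43.5%). The group means were 102 ± 44.2 and 1112 ± 255 normalized counts (SD, n = 5 each), a log2 difference of 3.53.

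Arhgef16, the RhoG exchange factor, stood at 218, 94.0, 193, 306 and 139 normalized counts in the CTRL tumors in the same order. Its values in the D30 tumors were 2289.8, 2820.1, 1117, 1445 and 2058. T4 was the lowest D30 tumor and still 3.65-fold above N5, the highest of CTRL. The means of 189.9 ± 80.9 and 1946 ± 677 gave a log2 difference of 3.39, and 3.57 without T4.

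Smim22, the small membrane protein, gave 60.0, 16.6, 65.8, 31.0 and 80.4 normalized counts in the CTRL tumors. The D30 tumors gave 576, 865, 855, 464 and 985. T7 was the highest and T5 the lowest of D30, N2 was the lowest of CTRL, and the gap between the groups was 5.76-fold. Mean levels were 50.8 ± 26.2 and 749 ± 219, a 14.8-fold ratio of the means.

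Ppm1j, the phosphatase, had 327, 291, 413, 397 and 406 normalized counts in CTRL. It had 1146, 1438, 1932, 1279.8 and 1180.3 in D30. CTRL tumors differed from each other by at most 1.42-fold and D30 tumors by 1.68-fold, and T4 was the highest of all. The means were 367 ± 54.6 and 1395 ± 320.5 and the log2 difference 1.91, or 1.79 without T4.

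Rnf186, the ubiquitin ligase, was near the limit of detection in CTRL tumors, with 7.36, 0.72, 8.22, 4.43 and 3.42 normalized counts from 26 reads in all. The D30 tumors held 98.7, 345, 40.5, 179.7 and 212. T2 was the highest and T4 the lowest, an 8.52-fold range within D30, and T4 was 4.92-fold above N4, the highest of CTRL. The means were 4.83 ± 3.04 and 175 ± 116, with a log2 difference of 4.81 that became 5.25 without T4.

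Lypd3 was listed at 0 in N1, N2 and N5, at 12.8 in N4 and at 0.86 in N6. The D30 tumors held 21.6, 28.6, 214, 38.9 and 34.1 normalized counts. A single tumor thus led each group, N4 with 14 of the 15 reads of CTRL and T4 with 185 of the 297 reads of D30, and the lowest D30 tumor was 1.69-fold above N4. The log2 difference of 4.58 rests on CTRL tumors of which 4 had 3 reads or fewer, depends on the pseudocount of 1 and was 4.02 without T4. The part of the features that set T4 apart in its Lypd3 value was not tested. An annotated antisense gene, Gm26550, overlaps Lypd3 and had a mean of 0.21 normalized counts in CTRL and 0.41 in D30 tumors.

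Themis3 had 2.10, 0, 0, 1.77 and 0 normalized counts in the CTRL tumors, from 4 reads in all. In D30 tumors it had 193, 183, 98.3, 2.29 and 72.4. T5, with 2 reads, lay at the CTRL level, and N1 also held 2 reads, so the absence of overlap between the groups rested on a ratio of 1.09 between these tumors. When the tumors were scaled by library size the order of T5 and N1 turned and the groups overlapped. Themis3 passed the filter on low values only through the D30 tumors, its CTRL mean being 0.775, so no fold is given. T5 also had the fewest genes with a read, 20482, and the part of this in its Themis3 value was not tested. The summed level of 15 T and NK cell markers went the other way. It was 630 to 1043 normalized counts in CTRL and 240.4 to 442 in D30 tumors. Every D30 tumor was below every CTRL tumor. Of the 14 tested markers only 1 was called, Il2ra, which was lower in D30. Il2ra had 159 to 212 normalized counts in CTRL and 0 to 27.5 in D30 tumors, a large part of the gap between the sums. Whole tumors were sequenced, and for every gene here fewer cells of a type and less RNA per cell cannot be told apart.

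Divided by exon length, the levels can be ordered between genes. In CTRL tumors the mean was highest for Ppm1j (202 normalized counts per kb), followed by Smim22 (90.5), Arhgef16 (34.6), Sgsm1 (13.6), Rnf186 (3.87), Lypd3 (1.66) and Themis3 (0.305). Only Ppm1j against Smim22 and Sgsm1 against Rnf186 were neighbours whose tumors did not overlap. In D30 tumors the order was Smim22 (1335), Ppm1j (769), Arhgef16 (355), Sgsm1 (149), Rnf186 (140.2), Themis3 (43.2) and Lypd3 (40.9). There the tumors of Ppm1j stayed apart from those of Arhgef16, and those of Arhgef16 from those of Sgsm1, while the other neighbours overlapped. Smim22 was thus second in CTRL and first in D30, although its D30 tumors, at 826 to 1756, overlapped those of Ppm1j, at 632 to 1065.

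The variation among tumors of the same diet is a measure that the choice of the genes used less directly. Each log2 value was therefore taken as the deviation from the mean of its own group. N2 was the lowest CTRL tumor for the 5 members with reads in every CTRL tumor (Sgsm1, Arhgef16, Smim22, Ppm1j and Rnf186), by 0.32 log2 units in Ppm1j to 1.54 in Rnf186 below the group mean. The Rnf186 value of N2 came from 1 read. Among D30 tumors no such common order was seen. T2 was the highest for Sgsm1, Arhgef16 and Rnf186, T4 the highest for Ppm1j and Lypd3 but the lowest for Arhgef16 and Rnf186, T1 the lowest for Sgsm1, Ppm1j and Lypd3, and T5 the lowest for Smim22 and Themis3.

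**Figure D2:**
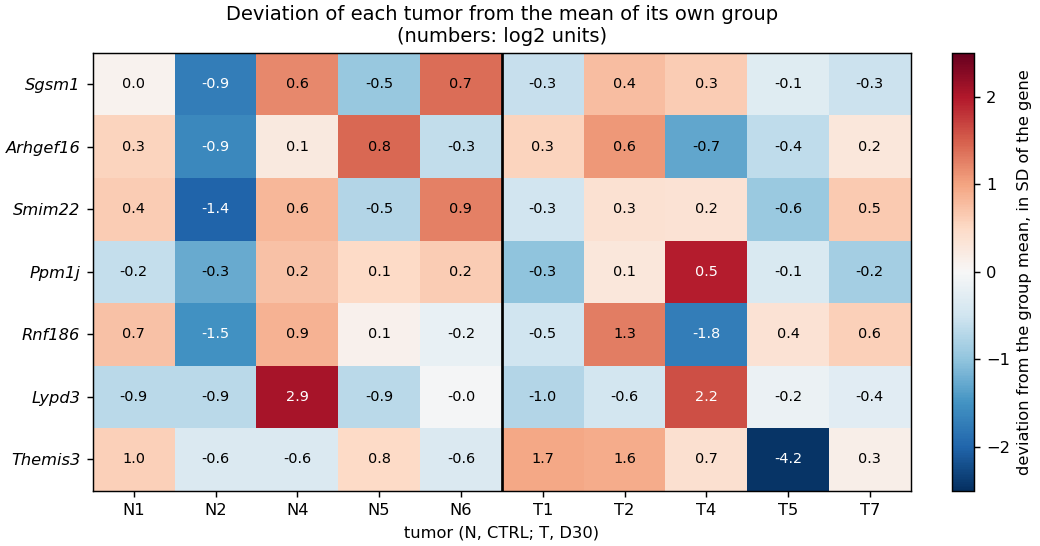
Rows are the 7 genes and columns the 10 tumors, the printed numbers are log2 deviations from the mean of the group, and the colors give the same deviations in SD of the gene. N2 is blue in every row, T4 is red for Ppm1j and Lypd3 and blue for Arhgef16 and Rnf186, and T5 of Themis3 has the largest deviation at -4.22.

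Over the 21 pairs of members the median Pearson r of these deviations across the 10 tumors was 0.27, with 16 pairs above 0 and a range from -0.30 to 0.85. The points of a pair share their libraries, size factors and cell mixture. The closest pair was Sgsm1 with Smim22 (r = 0.85, rho = 0.78), which stayed at r = 0.66 without N2 and N6, the tumors farthest from the median of Sgsm1. Ppm1j with Lypd3 had r = 0.72 (rho = 0.77) and 0.43 without T4 and N2, and Sgsm1 with Ppm1j had r = 0.67 (rho = 0.71) and 0.55 without N2 and N6. Arhgef16 with Rnf186 had r = 0.74 (rho = 0.52), which fell to 0.26 without N2 and T4. It thus rested on these tumors, and Rnf186 had only 1 read in N2. The lowest value was that of Arhgef16 with Lypd3 (r = -0.30, rho = -0.47). The median r of Themis3 with the other 6 was 0.06, but its CTRL deviations come from 2, 0, 0, 2 and 0 reads, so that the value says little about it. The same holds for Lypd3, with 14 of its 15 CTRL reads in N4.

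Single tumors set the size of this co-variation. Without N2 the median r over the pairs was 0.02, with 11 of the 21 pairs above 0, whereas it was 0.42 without N6 and 0.48 without T4. Rnf186 was affected most by T4, its median r with the other 6 being 0.18 with T4 and 0.65 without. N2 carried a summed level of 18 acinar markers of 40459 normalized counts, and N6, the highest CTRL tumor for Sgsm1 and Smim22, carried 87169, against 641 to 5024 in the other CTRL tumors. N2 also had the highest summed fibroblast markers, 143257 against 34125 to 118861 in the other 9 tumors. The part of these cell mixtures in the order of the tumors was not tested.

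The genes whose deviations were most like the mean standardized profile of the members were Lrrc26 (r = 0.95 over 10 tumors), Gcnt3 (0.94), Cyp2c23 (0.93), Gm38329 (0.93) and Dio1 (0.92), out of 17294 genes with a mean of at least 10. Lrrc26 encodes a channel subunit of secretory epithelium, Gcnt3 a glycosyltransferase of mucin O-glycans, Cyp2c23 a cytochrome P450 and Dio1 a deiodinase. Of these, Lrrc26 was called higher in D30 (461 and 1045 normalized counts, log2 difference 1.19, adjusted p = 0.0400), while the adjusted p was 0.0557 for Gcnt3, 0.0554 for Cyp2c23, 0.926 for Gm38329 and 0.0861 for Dio1. For single members other than Lypd3 the most similar gene was Cyp2c23 for Sgsm1 (r = 0.89), Tmc5 for Arhgef16 (0.93), Tff1 for Smim22 (0.92), Prkaa2 for Ppm1j (0.94), Mpo for Rnf186 (0.96) and Gm14399 for Themis3 (0.98). Mpo is a neutrophil marker, and the summed level of 8 neutrophil markers was 7384 normalized counts in T2 and 13505 in T5, against 649.8 to 3389.6 in the other 8 tumors. Mpo itself was 213 in T2, 72.4 in T7 and 26.3 in T5, an order unlike that of the sum. The part of neutrophils in the Rnf186 values was not tested. A best match out of so many genes over 10 tumors is high by selection, and these values are a description of the tumors.

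Relatives of the members were then compared between the diets in the fit over all genes, to see how many of each family passed the test. For Sgsm1, 0 of 24 tested RUN-TBC proteins and Rap GTPases and their regulators were called by limma, 5 had an unadjusted p under 0.05 and edgeR also called 0 (1 higher and 1 lower by DESeq2). Its relative Sgsm3 had 2158 ± 450.0 normalized counts in CTRL and 3893 ± 1045 in D30, with no overlap (log2 difference 0.84 ± 0.22 (SE), adjusted p = 0.0580). Rapgef3, a Rap exchange factor that responds to cyclic AMP, had 1208 ± 209 and 480.4 ± 224 (-1.54 ± 0.41, adjusted p = 0.0638). The 5 of 24 stand near the 17.3% of all tested genes. Without T4 both genes were called (adjusted p = 0.0432 for Sgsm3 and 0.00498 for Rapgef3), 1 higher and 1 lower. The list's median log2 difference was 0.05, from -0.07 without T1 to 0.08 without N4, against -0.06 over all tested genes.

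Of 18 tested ephexins and members of the EphA2 to RhoG route of Arhgef16, 1 was called (2.76% over all genes), and it was higher. It was Elmo3, of the ELMO adaptors that RhoG binds, with 1231 ± 180.4 normalized counts in CTRL and 2442 ± 407 in D30 tumors (log2 difference 0.99 ± 0.18, adjusted p = 0.0114), and its groups did not overlap. The list's median was 0.09, from -0.01 without T5 to 0.17 without T4. Without T4 the same list held 3 called higher and 1 lower.

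Among 19 tested PP2C phosphatases, relatives of Ppm1j, 0 were called by limma or edgeR (1 lower by DESeq2), 5 had an unadjusted p under 0.05 (17.3% over all genes), and the median log2 difference was -0.32, or -0.14 without T5 and -0.19 without T4. Ppm1n (0.919 ± 0.982 and 6.03 ± 3.74 normalized counts, log2 difference 1.91 ± 0.53, adjusted p = 0.0796) and Ppm1h (227 ± 36.4 and 134 ± 10.6, -0.74 ± 0.22, adjusted p = 0.102) came nearest. Without T4, 2 were called lower, Ppm1h (adjusted p = 0.0435) and Pdp1 (0.0300). Of 21 tested membrane RING ligases and partners of Rnf186, 1 was called (2.76% over all genes), at a median of 0.10 (0.05 without N1 to 0.18 without T2). This was Rnf224, with 6.29 ± 1.42 and 26.9 ± 9.65 normalized counts (1.88 ± 0.41, adjusted p = 0.0293). Among 26 tested small integral membrane proteins and Sqle, a partner of Smim22, 0 were called by limma and by edgeR (1 higher by DESeq2) and 1 had an unadjusted p under 0.05, with a median of 0.21, which was 0.03 without T4 and -0.01 with library-size scaling. That gene was Smim24, with 226 ± 17.1 and 549 ± 288 (1.13 ± 0.31, adjusted p = 0.0720, or 0.0441 without T4, which made it a call), followed by Smim13 (482 and 340.0, -0.57, adjusted p = 0.311). Of 12 tested genes of the THEMIS family and of T cell receptor adaptors, 0 were called by limma, edgeR or DESeq2 and 1 had an unadjusted p under 0.05. That was Plcg1 (6073 and 3293, -0.93, adjusted p = 0.152), followed by Grap2 (-0.97, adjusted p = 0.310). Their median was -0.46, in the direction opposite to Themis3.

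The list built around Lypd3 had the highest median of the 7 family lists. Of 30 tested LY6/PLAUR genes, laminin chains and Agr proteins, 5 rose and 1 fell (1.40% and 1.36% over all genes), with a median log2 difference of 0.78. Lamb3, a laminin chain of epithelial basement membranes, rose by 1.92 ± 0.32 (adjusted p = 0.00660), from 2038 ± 716 to 8099.9 ± 4526 normalized counts. Lypd5 (4.94 ± 2.60 to 28.4 ± 12.6, adjusted p = 0.0221), Ly6f (85.3 ± 38.7 to 377 ± 251, adjusted p = 0.0347) and Agr2, a secreted disulfide isomerase (953 ± 700 to 5517 ± 3429, adjusted p = 0.0448), rose as well. Lypd2 fell, from 15.8 ± 7.03 to 1.99 ± 2.46 (-2.78 ± 0.63, adjusted p = 0.0335), but not by edgeR (adjusted p = 0.0799). T4, which led Lypd3, was the lowest D30 tumor for Ly6f and was the highest for none of the 5 genes that rose. Without T4 this list held 9 called higher and 1 lower, and with edgeR 9 higher and 0 lower. Agr2 and Ly6d of this list also stand in the gastric and squamous lists.

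**Figure D3:**
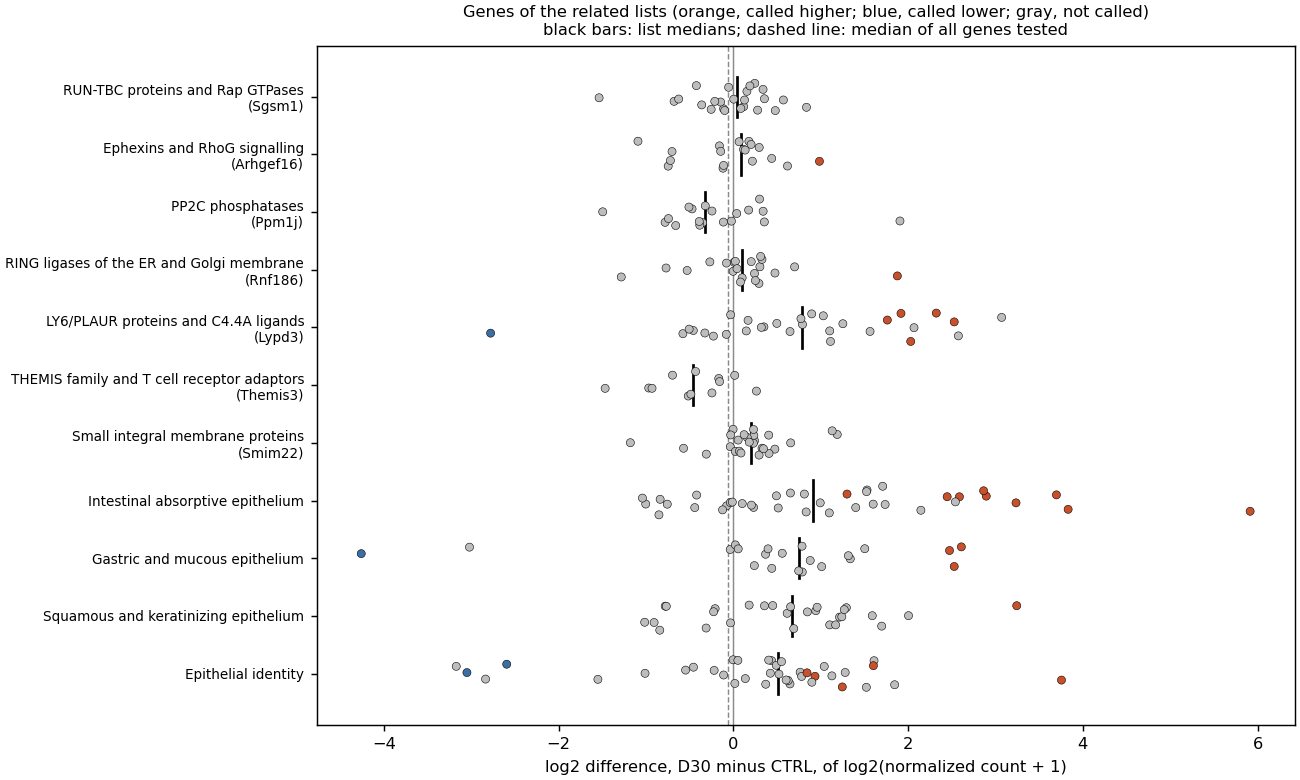
Each point is a tested gene of a list, placed by its log2 difference (D30 minus CTRL), with called genes in orange (higher) and blue (lower), list medians as bars and the median of all tested genes as a dashed line. The family lists of Sgsm1, Arhgef16, Ppm1j and Rnf186 lie around 0, while the Lypd3 family and the 4 epithelial lists have medians of 0.51 to 0.91.

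Groups of epithelial genes were examined because several members are known from such tissue. Of 38 tested genes of the intestinal absorptive epithelium, 9 were called, all higher (1.40% over all genes), with a median log2 difference of 0.91. The 5 with the smallest p were the transmembrane mucins Muc13 (28.9 ± 10.4 to 425 ± 248 normalized counts, 3.70 ± 0.43, adjusted p = 0.00133) and Muc3 (30.2 ± 9.42 to 2980 ± 2820, 5.91 ± 0.72, adjusted p = 0.00146), the intestinal surface antigen Gpa33 (2.59 ± 0.32, adjusted p = 0.00162), the microvillar actin bundler Espn (2.89 ± 0.43, adjusted p = 0.00431) and the nuclear receptor Hnf4g (3.83 ± 0.57, adjusted p = 0.00431). The other 4 called genes were Tm4sf5, Eps8l3, Pigr and Ceacam1, at log2 differences of 1.30 to 3.24. Of 21 tested genes of gastric and mucous epithelium, 3 rose and 1 fell (1.40% and 1.36% over all genes). Fcgbp, Spdef and Agr2 rose, by 2.47 to 2.61. The gel-forming mucin Muc5b fell (5476 ± 3280 to 468 ± 283, -4.26 ± 1.04, adjusted p = 0.0467). In the squamous list 1 of 28 was called, near the 2.76% over all genes. It was the calcium-binding protein S100a14 (476 ± 224 to 4403 ± 1919, 3.24 ± 0.33, adjusted p = 6.23e-04).

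The general epithelial identity list was mixed, with 5 of 38 higher and 2 lower (1.40% and 1.36% over all genes) at a median of 0.51. The genes that rose were the protease inhibitor Spint2 (9680 ± 1927 to 29337 ± 5197, 1.60 ± 0.20, adjusted p = 0.00178), the repressor Ovol1 (6.22 ± 4.78 to 115 ± 93.0, 3.76 ± 0.73, adjusted p = 0.0150), Crb3, Tmprss2 and Tjp3. Those that fell were the splicing factor Esrp1 (9.45 ± 4.36 to 0.231 ± 0.517, -3.05 ± 0.50, adjusted p = 0.00656) and the claudin Cldn7 (24.2 ± 15.5 to 3.05 ± 1.92, -2.59 ± 0.64, adjusted p = 0.04998). The summed level of 9 markers of pancreatic cancer epithelium was 254323 to 377564 normalized counts in CTRL and 373044 to 576229 in D30 tumors, so that only N4 and T2 crossed, and none did without Krt8. The summed level of 8 endothelial markers was 12623 to 19913 in CTRL and 7294 to 10949 in D30 tumors, but without Cdh5, the only one called, the groups overlapped, at 4981 to 5706 and 3734 to 6977. That of 10 fibroblast markers was 81540 to 143257 and 34125 to 109110, and 5 of 11 tested islet markers were called lower (1.36% over all genes). The part of these cell mixtures in the values of the members and of the epithelial lists was not tested. Without T4 more genes were called higher, namely 14 of the intestinal, 5 of the gastric, 7 of the squamous and 13 of the identity list, against the 3.22% over all genes. Called lower without T4 were 2 of the gastric and 4 of the identity list.

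N2 and T2 were also the extremes for many of these epithelial genes. Of the 18 genes called higher in the 4 lists, 14 had their lowest CTRL value in N2 and 13 their highest D30 value in T2, the tumor that was also highest for Sgsm1, Arhgef16 and Rnf186. The lowest D30 tumor was T5 for 8 and T4 for 7 of them. On the mean of log2 values the 38 intestinal genes stood at 6.63 in N2 and at 7.02 to 7.47 in the other CTRL tumors, and at 7.52 in T4, 7.94 in T5, 8.24 in T1, 8.35 in T7 and 8.91 in T2. Rnf186 and Arhgef16 had the same extremes, with N2 lowest in CTRL and T4 lowest and T2 highest in D30, and Lypd3 did not.

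Genes beside the members were examined to see whether the difference extended along the chromosome. Of the 12 tested neighbouring or overlapping genes, 1 was called (2.76% over all genes). It was Fam19a3, which overlaps the start of Ppm1j on the other strand. It rose from 32.3 ± 7.09 to 103 ± 33.0 normalized counts (log2 difference 1.60 ± 0.34, adjusted p = 0.0247), close to the 1.91 of Ppm1j. The libraries kept the strand of the RNA, but the strand setting used in counting is not given in the sources used here, so reads of Ppm1j and Fam19a3 may not have been told apart. The Ppm1j promoter window printed above lies within the Fam19a3 gene.

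The other 11 were not called. Tmem211 beside Sgsm1 (2.13 ± 1.43 and 11.9 ± 6.04 normalized counts, 2.02 ± 0.52, adjusted p = 0.0589), Prdm16 beside Arhgef16 (1.73 ± 0.68, adjusted p = 0.212), Rhoc beside Ppm1j (0.78 ± 0.28, adjusted p = 0.163), Tmco4 beside Rnf186 (0.87 ± 0.28, adjusted p = 0.127) and Phldb3 beside Lypd3 (0.75 ± 0.30, adjusted p = 0.225) had an unadjusted p under 0.05, all with higher means in D30. Without T4, Prdm16 (adjusted p = 0.0449), Tmco4 (0.0280) and Phldb3 (0.0291) were called higher. Over all tested genes 17.3% had an unadjusted p under 0.05, a smaller share than among these 12 neighbours. Smim22 and Themis3 had no neighbour under that limit.

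**Figure D4:**
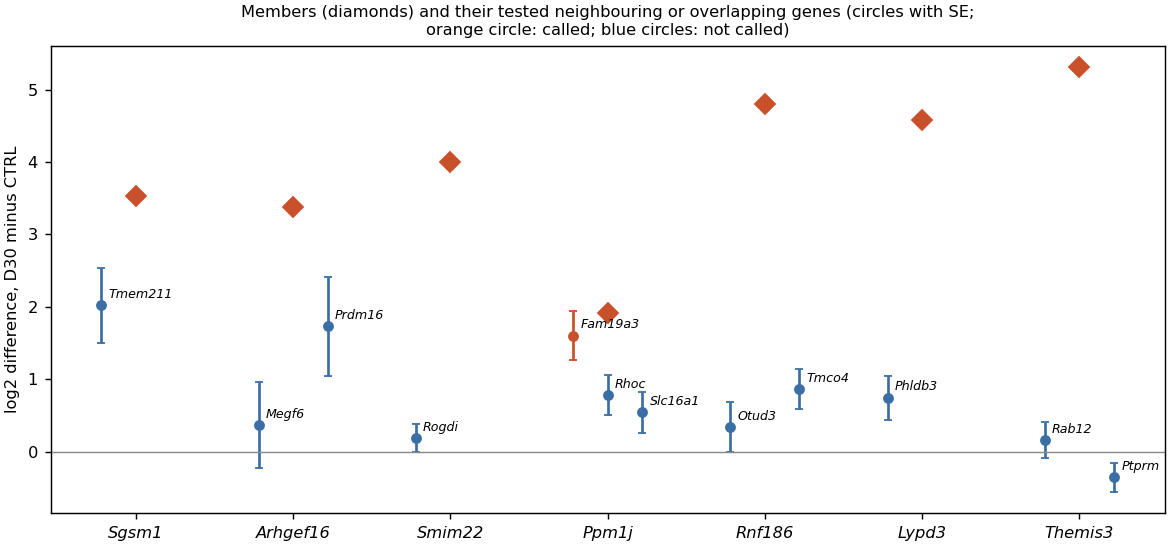
Diamonds give the log2 difference (D30 minus CTRL) of each member and circles with SE bars those of the tested genes next to or overlapping it, in orange if called and in blue if not. Fam19a3, at 1.60, lies near Ppm1j at 1.91, and the other circles lie between -0.36 and 2.02.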

How the data were processed

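RNA of 5 CTRL and 5 D30 tumors was sequenced from strand-specific libraries in pairs of 150 bases, trimmed with Trim Galore and aligned with STAR 2.7.0e, according to the methods and the submitters' processing notes. The methods name hg38 and the notes GRCm39, whereas the table lists mouse Ensembl identifiers. The deposited signal is a table of normalized counts of the DESeq2 kind, in which the authors had already divided the reads by a size factor for each tumor. Dividing each column by its step gave whole reads (within 0.01) for 100.0% of the values. GENCODE M21 (GRCm38) named 94.1% of the 55359 genes.

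limma 3.58.1 (R 4.3.3, moderated test with a mean-variance trend, two-sided) was fitted on log2(normalized count + 1) of the 24560 genes with a mean of at least 1, a scale that understates the fold of low genes. Alternatives were edgeR 4.0.16 and DESeq2 1.42.0 on the recovered reads, a pseudocount of 5, other filters and scalings, and leaving out each tumor. Marker sums without the most abundant marker of a list were added after seeing the data. The fits were tested on simulated data. P-values set the difference between the diets against the spread among these tumors within a diet. A floor of 3 reads covers counting error only.

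The members and gene lists were chosen with earlier results of these data known. Named were the members, the called genes of each list (up to 5 by smallest p, or the 2 of smallest p where none was called, with the remaining called genes given by name only), neighbours that were called or had an unadjusted p under 0.05, and the genes most like the members. Some genes that meet this rule are not reported here. Listed genes without a match were Lypd10, Smim30, Smim31, Smim33, Smim35 and Muc6.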

Additional observations from a re-analysis of the deposited data

Results flagged for a closer look

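Of 14 groups of tumors looked at (7 genes in each diet), 3 had a tumor whose gap to its nearest neighbor was larger than Dixon's 95% limit of 0.71 of the range of the group. About 1 in 20 groups is marked in this way by chance. Lypd3 was marked in both groups, in CTRL for N4 at 12.79 normalized counts (ratio 0.764) and in D30 for T4 at 214.0 (ratio 0.747). Themis3 was marked in D30 for T5, the lowest tumor at 2.289 (ratio 0.761). No cause was tested for any of these tumors.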

How the results depend on the processing

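In 98 recomputations of the log2 differences of the 7 members, 1 moved by more than 1 SD, that of Lypd3 with a pseudocount of 5 (2.93). None changed sign, which was fixed in advance where a tumor was left out, since the groups did not overlap. Leaving out a tumor cannot create an overlap between separate groups, so only the scalings could change the number of members without overlap. That number was 7 with upper-quartile scaling and 6 with library-size scaling, which lost Themis3. Of 168 recomputed list medians 6 moved by more than 1 SD. The number of genes called, 678, was 1957 with DESeq2 and 270 to 1530 when each tumor was left out in turn (270 without N2, 332 without N6, 336 without N5, 435 without T7 and 1530 without T4). It was 600 to 866 under the remaining settings. Library-size scaling gave 240 higher and 626 lower genes (27.7% higher against 50.7%) and a median log2 difference of all genes of -0.27, so that members and lists should be read against that shift. The median r of the member pairs was 0.0229 to 0.484 when each tumor was left out, lowest without N2 and highest without T4, with 0.42 without N6. The cause of these changes was not tested. No paired analysis was possible because the column numbers do not carry the replicate numbers of the labels. The design described in the methods also has no pairs, since mice with tumors were randomized to the treatments. Equal replicate numbers in the labels of the groups are therefore not known to link animals. The depth limits Lypd3 and Themis3 in CTRL tumors, where 15 and 4 reads were recovered.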
